A study of Mus musculus with 8 samples.

Results

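The 10 genes described here encode the first steps of signaling below the B-cell receptor (BCR), and they were taken from the mRNA table by symbol: Cd79a, Cd79b, Lyn, Blk, Syk, Btk, Blnk, Vav1, Plcg2 and Prkcb. Each symbol matched 1 row, so the set makes up 10 of 22298 mRNAs. RNA was sequenced from 4 populations of the B lineage that had been sorted from the bone marrow of wild type C57BL/6 female mice aged 8 to 10 weeks, namely pro-B and pre-B cells and, after the receptor reaches the surface, immature and mature B cells. No treatment or altered allele was part of the design. The gates in the study's methods took live cells that were B220+ IgM- CD43+ as pro-B, B220+ IgM- CD43- as pre-B, B220+ IgM+ CD43- as immature B and B220hi IgM+ CD43- as mature B cells. Cells of 3 mice were pooled for each population, and 1 rRNA-depleted RNA library was made per population, so no difference between stages has a replicate check and no p-value is given.

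A BCR is a membrane immunoglobulin paired with the Cd79a and Cd79b chains, whose cytoplasmic tails carry the tyrosine motifs that start the signal. Src-family kinases such as Lyn and Blk phosphorylate these tails, Syk docks on them, and the adaptor Blnk, once phosphorylated by Syk, holds Btk, Vav1 and phospholipase C gamma 2 (Plcg2) at the membrane. Plcg2 then makes the messengers that release calcium and turn on protein kinase C beta (Prkcb). In pre-B cells the same machinery serves the pre-BCR, a receptor built from the heavy chain and the surrogate light chain, and mice or people that lack Btk or Blnk make fewer mature B cells.

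The mRNA counts of a library summed to 867920 in pro-B, 240231 in pre-B, 223495 in immature B and 849350 in mature B cells. Levels are given as CPM, the count of a gene over the mRNA total of its library times 1000000, with an exact Poisson 95% interval for counting error alone. Where a gene has no count, up to 3 remain possible, which is between 3.46 and 13.4 CPM. The mRNAs made up between 6.48% and 23.7% of the mRNA and lncRNA counts together, with the low shares in pre-B and immature B cells. The FPKM values that the authors deposited are scaled to all fragments on reference genes, and they shift the median mRNA by a log2 ratio of -2.18 from pro-B to pre-B cells and of 1.99 from immature to mature B cells. CPM is therefore used between libraries and FPKM only between genes within a library. The marker lists followed the labels in part: the 6 pro-B genes summed to 2320 CPM in pro-B cells and between 44.7 and 179 elsewhere, and the 6 mature B genes to 4640 CPM in mature B cells and between 232 and 635 elsewhere. The 4 pre-B genes had their highest sum in pro-B cells, at 1280 CPM beside 1070 in pre-B cells. Rag1 gave 918 CPM of the pro-B sum and 372 of the pre-B sum. Rag2, Il2ra and Vpreb3 went the other way, from 109, 68.0 and 182 CPM in pro-B to 316, 83.3 and 295 in pre-B cells. Vpreb3 was highest in immature B cells, at 456 CPM. The sum of the 4 immature B genes was highest in immature B cells, at 9500 CPM. Dntt and Igll1, from the pro-B list, were at 0 in the other 3 libraries. The pro-B library also held 1980 CPM of 8 plasmacytoid dendritic cell genes, where the other libraries held between 470 and 985. Irf8 alone gave 902 CPM in pro-B and 631 in mature B cells. Siglech, Klk1 and Cox6a2 had counts in pro-B cells and were at 0 in mature B cells. The 10 T and NK cell genes had 290 CPM in pro-B cells and between 5.89 and 8.95 elsewhere. In pro-B cells Gzma gave 122 CPM of this sum, while Cd3e and Cd3d were at 0 and Cd3g and Trac had 2 counts each. Myeloid, erythroid and plasma cell genes varied less, from 865 to 1180, from 271 to 546 and from 111 to 375 CPM. The part of these cells in the levels below was not tested, and fewer cells of a type cannot be told apart from less RNA per cell in pooled material.

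The promoters of 4 of the genes are shown because their mRNAs moved in pairs at 1 step: Blnk and Prkcb were lower after the step from pro-B to pre-B cells, and Cd79a and Plcg2 were higher after the step from pre-B to immature B cells. The sequences were read from RefSeq on GRCm38.p6 and run from 250 bases before to 50 bases after the start of the gene, which the table of promoters held for 7 of the 10 genes. Capitals mark ATGCAAAT, the octamer that Oct factors bind, and AGGAAG, a core of ETS-type sites, each searched on both strands. The Blnk promoter is chr19:40994172-40994471 on the minus strand, that of Prkcb is chr7:122288875-122289174, that of Cd79a is chr7:24897247-24897546 and that of Plcg2 is chr8:117498025-117498324, the last 3 on the plus strand.
Blnk: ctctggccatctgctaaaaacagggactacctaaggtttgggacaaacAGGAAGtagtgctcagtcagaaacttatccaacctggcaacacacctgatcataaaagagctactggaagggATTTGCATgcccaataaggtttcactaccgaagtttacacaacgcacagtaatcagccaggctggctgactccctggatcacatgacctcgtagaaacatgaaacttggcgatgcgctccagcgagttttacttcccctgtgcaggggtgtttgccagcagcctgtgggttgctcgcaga
Prkcb: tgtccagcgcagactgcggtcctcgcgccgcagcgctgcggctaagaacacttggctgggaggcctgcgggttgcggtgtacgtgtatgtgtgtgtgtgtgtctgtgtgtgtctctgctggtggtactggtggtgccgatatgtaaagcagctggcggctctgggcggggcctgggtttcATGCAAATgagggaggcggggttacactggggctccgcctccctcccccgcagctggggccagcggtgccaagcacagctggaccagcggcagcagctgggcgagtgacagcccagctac
Cd79a: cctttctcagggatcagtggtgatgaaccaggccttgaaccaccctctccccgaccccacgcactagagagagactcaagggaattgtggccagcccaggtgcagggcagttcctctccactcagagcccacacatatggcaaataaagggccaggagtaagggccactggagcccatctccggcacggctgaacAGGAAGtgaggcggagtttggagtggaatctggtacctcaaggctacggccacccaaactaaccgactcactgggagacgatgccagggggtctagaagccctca
Plcg2: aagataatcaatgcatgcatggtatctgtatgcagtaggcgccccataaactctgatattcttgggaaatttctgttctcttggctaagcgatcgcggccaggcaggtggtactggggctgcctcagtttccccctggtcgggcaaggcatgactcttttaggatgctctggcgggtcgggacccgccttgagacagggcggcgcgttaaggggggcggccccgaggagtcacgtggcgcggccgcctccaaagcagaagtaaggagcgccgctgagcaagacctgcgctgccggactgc
Counted from the start, the octamer began at position -70 of Prkcb on the same strand and at position -130 of Blnk, where it stood on the opposite strand as ATTTGCAT. Of 32851 promoters of this length, 1.74% held it, and of the 8 promoters of the 7 genes 2 did. The ETS-type core was in 35.4% of all promoters and in 4 of the 8, those of Blnk, Btk, Cd79a and Vav1. TATAAA, with a share of 13.6% of all promoters, was in none of the 8, and no 2 matches overlapped. The matches describe these letters only and are not binding sites measured here.

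All 10 genes were detected in each library. Together they took 0.345% of the mRNA counts in pro-B, 0.427% in pre-B, 0.487% in immature B and 0.441% in mature B cells. Per length, Cd79b had the highest FPKM of the 10 genes in each library, with 37.8%, 66.3%, 70.5% and 36.7% of their summed FPKM from pro-B to mature B cells. The lowest was Plcg2 in pro-B and pre-B cells, with 3.85 and 0.570 FPKM, and Btk in immature and mature B cells, with 0.900 and 4.43 FPKM. Of the genes, 9 are listed in the KEGG B cell receptor signaling pathway of the mRNA table, which holds 201 genes, and Blk is the one that is not.

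**Figure D1:**
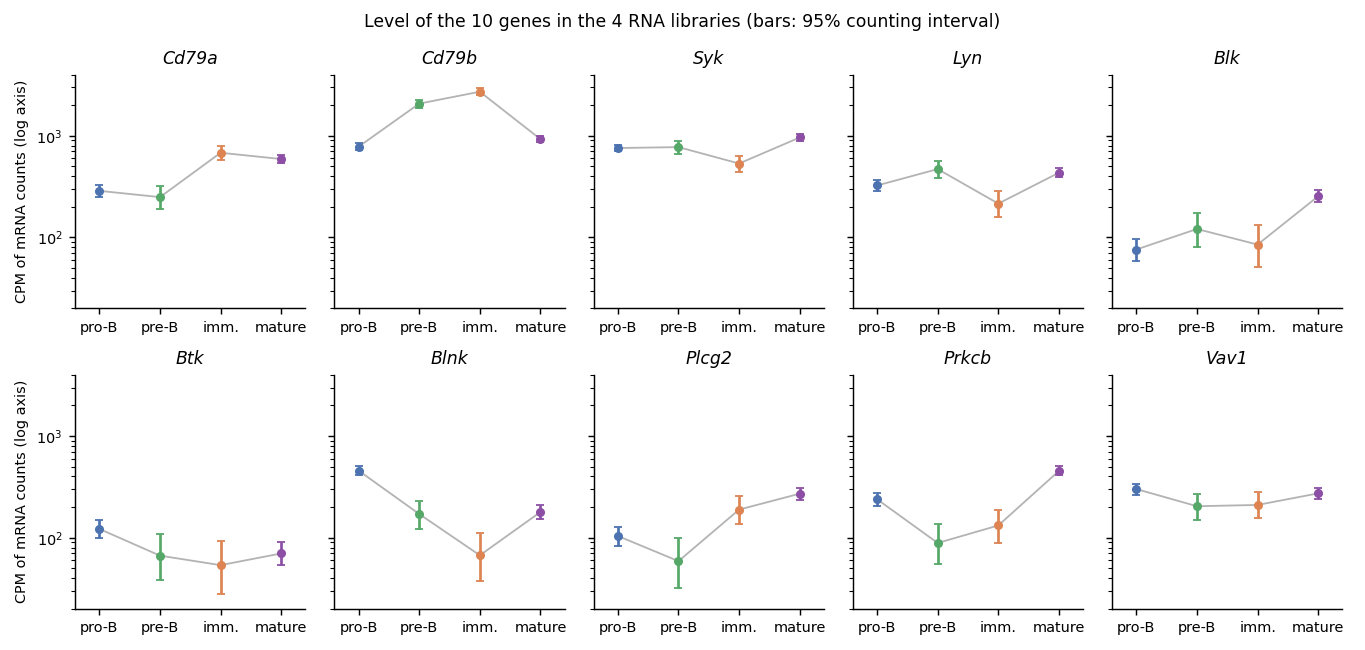
CPM of mRNA counts (log axis) of each of the 10 genes in the pro-B, pre-B, immature B (imm.) and mature B libraries, 1 library per stage, with bars for the exact Poisson 95% interval. Cd79b stands highest in pre-B and immature B cells at 2070 and 2710 CPM, and Blnk is highest in pro-B cells at 457 CPM.

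Among the receptor subunits, Cd79b (ENSMUSG00000040592) had 677 counts in pro-B, 498 in pre-B, 605 in immature B and 786 in mature B cells. As CPM these were 780 (722 to 841), 2070 (1890 to 2260), 2710 (2500 to 2930) and 925 (862 to 992). The middle stages thus stood above the first and the last by more than counting error, and Cd79b ranked 30 and 24 by count among the mRNAs of the pre-B and immature B libraries, against 110 and 93 in the pro-B and mature B libraries. The log2 ratio was 1.41 (1.24 to 1.58) from pro-B to pre-B cells and -1.55 (-1.70 to -1.39) from immature to mature B cells, and both changed sign with the deposited FPKM, at -0.53 and 0.37. Against the median mRNA of its own unit Cd79b was higher in pre-B and lower in mature B cells with either unit.

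Cd79a (ENSMUSG00000003379), the partner chain, had 249, 59.82, 152 and 500.84 counts in the same order. Its CPM was 287 (252 to 325) in pro-B, 249 (190 to 321) in pre-B, 680 (576 to 797) in immature B and 590 (539 to 644) in mature B cells. The levels fell into a low pair of IgM- stages and a high pair of IgM+ stages, and within each pair the intervals overlapped. From pre-B to immature B cells Cd79a was 2.73-fold higher, a log2 ratio of 1.45 (1.01 to 1.90), which the FPKM gave as 1.47. Mature B cells had 2.06 times the pro-B level, a log2 ratio of 1.04 (0.82 to 1.26).

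The Src-family kinases Lyn and Blk moved in the same direction at each step. Blk alone was over 2-fold higher in mature than in pro-B cells. Lyn (ENSMUSG00000042228), which can also restrain the receptor through inhibitory partners, had 281.46, 113, 48.04 and 367.91 counts, or 324 (288 to 364), 470 (388 to 566), 215 (159 to 285) and 433 (390 to 480) CPM. Immature B cells were the low point, 2.19-fold below pre-B cells with a log2 ratio of -1.13 (-1.65 to -0.63). From immature to mature B cells the log2 ratio was 1.01 (0.58 to 1.48), so close to 2-fold that the call was lost with TMM library sizes, with totals that leave out the most counted mRNAs and against mRNAs of like length.

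Blk (ENSMUSG00000014453), a kinase largely restricted to B cells, had 66, 29, 19 and 216 counts. Its CPM was 76.0 (58.8 to 96.7), 121 (80.8 to 173), 85.0 (51.2 to 133) and 254 (222 to 291), so that the first 3 stages overlapped in their intervals and mature B cells stood above all of them. Mature B cells were 2.99-fold above immature B cells, a log2 ratio of 1.58 (0.90 to 2.34), and 3.34-fold above pro-B cells, a log2 ratio of 1.74 (1.34 to 2.16).

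Syk (ENSMUSG00000021457), the kinase that binds the phosphorylated tails, stayed within 2-fold over the 4 libraries. It had 657.13, 185.63, 119.18 and 816.22 counts, or 757 (700 to 817), 773 (666 to 892), 533 (442 to 638) and 961 (896 to 1030) CPM. Immature B cells were lowest and mature B cells highest, and no adjacent stages differed by 2-fold. The log2 ratio between mature and immature B cells was 0.85 (0.57 to 1.14).

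Btk (ENSMUSG00000031264), the Tec-family kinase that phosphorylates Plcg2, had few counts: 106 (86.8 to 128) in pro-B, 16 in pre-B, 12 in immature B and 59.48 in mature B cells. Its CPM was 122 in pro-B cells and, in the later stages, 66.6 (38.1 to 108), 53.7 (27.7 to 93.8) and 70.0 (53.4 to 90.2). Pro-B cells had the highest level, with an interval that overlapped only that of pre-B cells, and the 3 later stages could not be told apart at this depth. The mature B level was 0.573 of the pro-B level, a log2 ratio of -0.80 (-1.30 to -0.34), which is under 2-fold.

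Blnk (ENSMUSG00000061132), the adaptor between Syk and Plcg2, was the only one of the 10 genes with its highest level in pro-B cells and a change of over 2-fold at each step. Its counts were 397, 41, 15 and 152, and its CPM 457 (414 to 505), 171 (122 to 232), 67.1 (37.6 to 111) and 179 (152 to 210). From pro-B to pre-B cells the log2 ratio was -1.42 (-1.92 to -0.96), from pre-B to immature B cells -1.35 (-2.31 to -0.46) and from immature to mature B cells 1.41 (0.65 to 2.29). The step from pre-B to immature B cells rests on 41 against 15 counts, and with halved counts its interval ran from -2.61 to 0.03. Mature B cells had 0.391 of the pro-B level, a log2 ratio of -1.35 (-1.63 to -1.08), close to the -1.33 of the FPKM.

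Vav1 (ENSMUSG00000034116), which activates Rac-type GTPases, had 261, 49, 47 and 232 counts. Its CPM of 301 (265 to 340), 204 (151 to 270), 210 (155 to 280) and 273 (239 to 311) varied least of the 10 genes, and no pair of adjacent stages differed by 2-fold. The largest step was from pro-B to pre-B cells, with a log2 ratio of -0.56 (-1.03 to -0.12).

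Plcg2 (ENSMUSG00000034330), the enzyme that opens the calcium arm, had 89.93, 14.12, 42.30 and 229.98 counts, or 104 (83.3 to 127), 58.8 (32.2 to 98.4), 189 (137 to 256) and 271 (237 to 308) CPM. As with Cd79a, both IgM+ stages stood above both IgM- stages, with no overlap of the intervals between the pairs. Immature B cells were 3.22-fold above pre-B cells, a log2 ratio of 1.69 (0.79 to 2.68), and mature B cells 2.61-fold above pro-B cells, a log2 ratio of 1.39 (1.03 to 1.75).

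Prkcb (ENSMUSG00000052889), which links the receptor to NF-kappaB signaling, had 207.13, 21.31, 29.40 and 385.81 counts. Its CPM was 239 (207 to 273), 88.7 (55.1 to 135), 132 (88.4 to 188) and 454 (410 to 502), so the 2 middle stages were low and mature B cells highest. The log2 ratio was -1.43 (-2.17 to -0.80) from pro-B to pre-B cells and 1.79 (1.26 to 2.41), or 3.45-fold, from immature to mature B cells.

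Counted by comparison, from pro-B to pre-B cells 1 of the 10 genes was at least 2-fold higher (Cd79b) and 2 were at least 2-fold lower (Blnk and Prkcb), where 14.8% and 29.2% of the 9152 mRNAs with at least 10 counts in either library were. From pre-B to immature B cells 2 were higher (Cd79a and Plcg2) and 2 lower (Lyn and Blnk), beside 18.9% and 20.2% of 5838 mRNAs. From immature to mature B cells 4 were higher (Lyn, Blk, Blnk and Prkcb) and 1 lower (Cd79b), beside 24.2% and 18.1% of 8363 mRNAs. Between the ends of the series, 3 were higher in mature than in pro-B cells (Cd79a, Blk and Plcg2) and 1 lower (Blnk), beside 13.2% and 24.2% of 9634 mRNAs. All 10 genes passed the minimum of 10 counts in each comparison. Adjacent comparisons share a library, so opposite moves of a gene at neighboring steps are not independent. With 10 genes these shares lie near the background, and the counts say nothing particular about the set.

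The median log2 ratio of the 10 genes was -0.38 from pro-B to pre-B cells, where that of all mRNAs tested was -0.37. It was -0.14 beside -0.02 from pre-B to immature B cells, 0.69 beside 0.19 from immature to mature B cells and 0.38 beside -0.19 from pro-B to mature B cells. The single genes spread widely around these medians, from -1.43 (Prkcb) to 1.41 (Cd79b) at the first step, from -1.35 (Blnk) to 1.69 (Plcg2) at the second, and from -1.55 (Cd79b) to 1.79 (Prkcb) at the third.

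**Figure D2:**
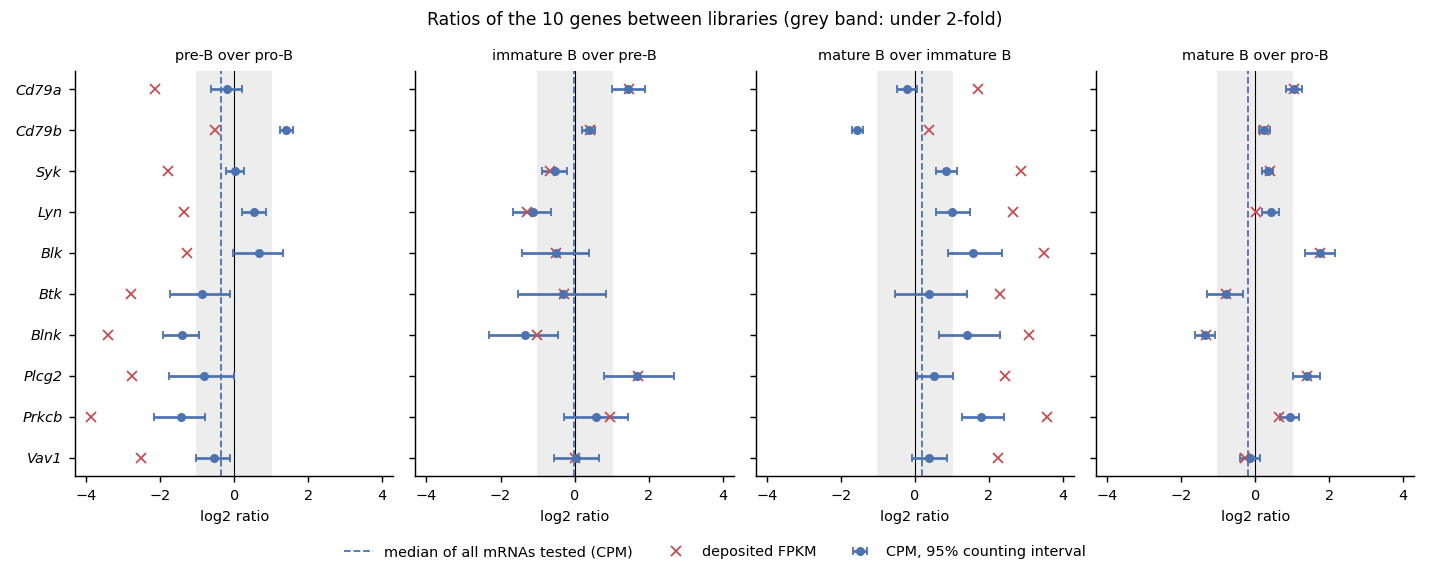
Log2 ratios of the 10 genes in 4 comparisons of 2 libraries, from CPM (points, with the 95% counting interval) and from the deposited FPKM (crosses), with the median of all mRNAs tested as a dashed line. The 2 units agree within the intervals for Cd79a from pre-B to immature B cells (1.45 and 1.47) and lie apart by about the shift of the whole table at the steps from pro-B to pre-B and from immature to mature B cells.

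Ratios also moved with transcript length over the whole table. The relative length of a transcript was read from the counts that 1 unit of FPKM stands for, with the median mRNA at 1. From pro-B to pre-B cells the median log2 ratio was -0.02 in the shortest quartile of mRNAs, -0.37 and -0.47 in the next 2 and -0.77 in the longest. The reverse was seen from immature to mature B cells, with -0.12, 0.16, 0.32 and 0.58. Cd79b and Cd79a, at relative lengths of 0.490 and 0.595, lay in the shortest quartile, and Plcg2 and Syk, at 1.76 and 1.97, in the longest.

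Against the mRNAs of their own quartile, Cd79b kept a log2 ratio of 1.43 from pro-B to pre-B cells and -1.43 from immature to mature B cells. Blnk kept -1.05 at the first step and 1.25 at the last, whereas Prkcb moved from -1.43 to -0.96 at the first step, under 2-fold. Plcg2 moved from -0.82 to -0.05 from pro-B to pre-B cells, and its step from pre-B to immature B cells stayed at 1.67. Syk moved from 0.03 to 0.80 at the first step and from 0.85 to 0.27 at the last, so its near-equal CPM in pro-B and pre-B cells did not hold against mRNAs of like length. What produced the relation with length was not tested.

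**Figure D3:**
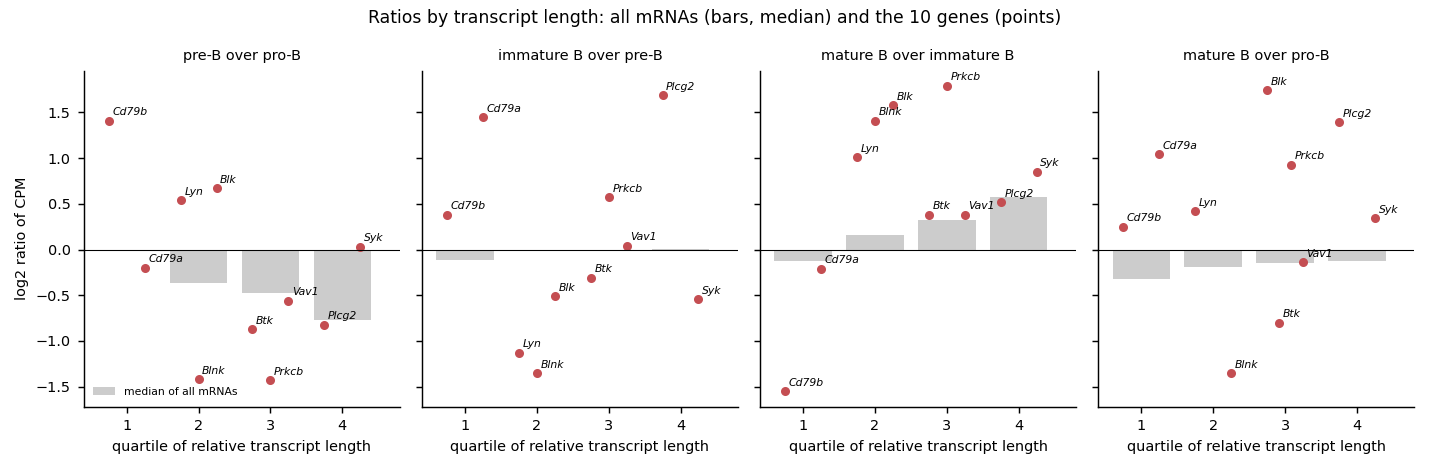
Log2 ratio of CPM by quartile of relative transcript length (1 shortest, 4 longest), with bars for the median of all mRNAs tested and points for the 10 genes. From pro-B to pre-B cells the bars run from -0.02 to -0.77, and Cd79b at 1.41 and Blnk at -1.42 lie far from the bar of their quartile.

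The balance between genes within a library does not depend on how libraries are scaled, so counts of functional partners were compared as ratios. The 6 pairs were chosen after the values were seen, and they are not divided by length. Cd79a had 0.368 counts (0.317 to 0.426) per Cd79b count in pro-B, 0.120 (0.0906 to 0.158) in pre-B, 0.251 (0.209 to 0.301) in immature B and 0.637 (0.569 to 0.714) in mature B cells. No 2 of these intervals overlapped: the balance leaned most to Cd79b in pre-B cells, with 0.328 of the pro-B ratio (0.237 to 0.447), and from there it was 2.08 times as high in immature B cells and then again 2.54 times as high (2.05 to 3.15) in mature B cells. Both genes are in the shortest quartile of transcripts.

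Blk had 0.234 counts (0.177 to 0.308) per Lyn count in pro-B, 0.257 (0.164 to 0.389) in pre-B, 0.396 (0.220 to 0.686) in immature B and 0.587 (0.494 to 0.696) in mature B cells. Neighboring stages were not separated by their intervals, while mature B cells had 2.50 times the pro-B ratio (1.80 to 3.48).

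Plcg2 and its adaptor Blnk showed the largest step of the 6 pairs. The ratio of Plcg2 to Blnk was 0.227 (0.178 to 0.286) in pro-B and 0.344 (0.172 to 0.639) in pre-B cells, and 2.82 (1.52 to 5.44) in immature B and 1.51 (1.23 to 1.87) in mature B cells. The step from pre-B to immature B cells was 8.02-fold (3.26 to 20.9). Per length, as FPKM, the ratios were 0.108, 0.168, 1.11 and 0.711, with Plcg2 above Blnk in immature B cells alone. That ratio of 1.11 rests on 42.30 against 15 counts, and no interval was computed for it. Prkcb to Blnk was 0.522 and 0.520 in pro-B and pre-B cells and 1.96 and 2.54 in immature and mature B cells. As FPKM the ratios were 0.474, 0.338, 1.34 and 1.86. The step from pre-B to immature B cells was 3.72-fold (1.55 to 9.28). Both pairs are divided by the same Blnk counts, 41 in pre-B and 15 in immature B cells, so their steps are not independent. The log2 ratio of Prkcb itself at this step was 0.57 (-0.29 to 1.45), a change within counting error.

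Btk had 0.161 counts (0.130 to 0.198) per Syk count in pro-B cells and 0.0729 (0.0545 to 0.0942) in mature B cells, 0.448 of the pro-B ratio (0.315 to 0.633). The stages between them, at 0.0862 (0.0482 to 0.143) and 0.101 (0.0507 to 0.183), had intervals that overlapped those of both pro-B and mature B cells. The pre-B ratio was 0.533 (0.287 to 0.935) of that in pro-B cells. Vav1 to Syk was 0.397 (0.343 to 0.459) in pro-B, 0.264 (0.188 to 0.363) in pre-B, 0.394 (0.276 to 0.558) in immature B and 0.284 (0.245 to 0.329) in mature B cells. The pre-B ratio was 0.663 (0.459 to 0.946) and the mature B ratio 0.716 (0.580 to 0.883) of that in pro-B cells.

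**Figure D4:**
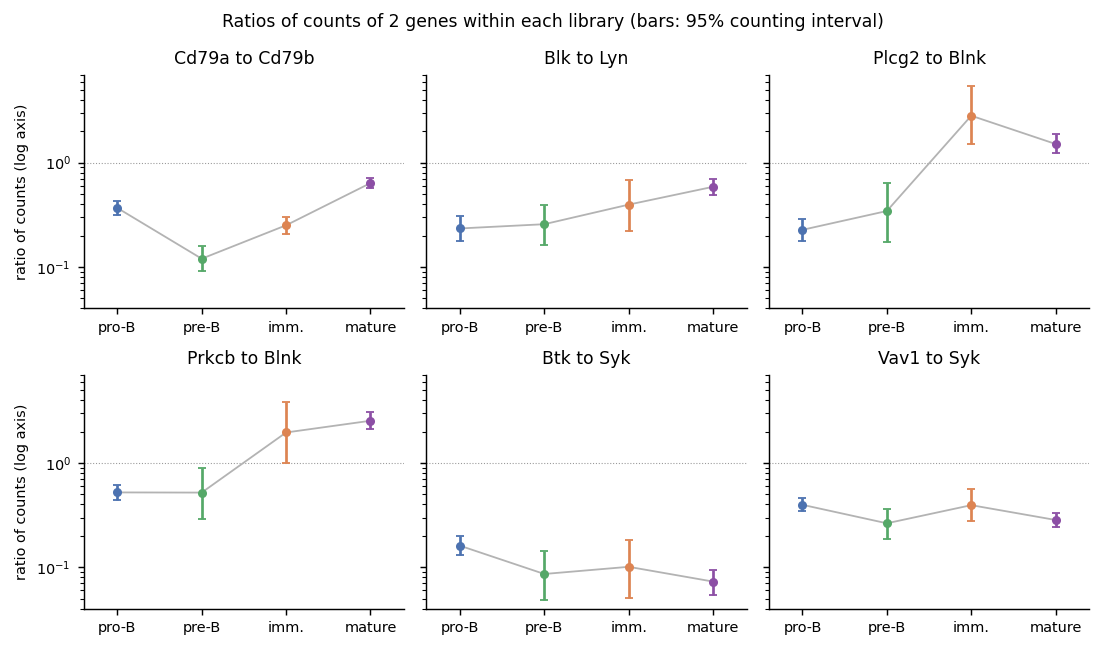
Ratio of the counts of 2 genes within each library (log axis, not divided by transcript length) for 6 pairs, with bars for the exact 95% counting interval. The ratio of Plcg2 to Blnk takes its largest step between pre-B (0.344) and immature B cells (2.82), and that of Cd79a to Cd79b is lowest in pre-B cells at 0.120.

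The profiles over the 4 libraries were compared by the Euclidean distance of centered log2(CPM + 1) values, in which 4 points give each profile. Among the 10 genes the nearest were Syk and Lyn at 0.46, Syk and Vav1 at 0.54, Btk and Vav1 at 0.55, and Cd79a and Plcg2 at 0.72, and the farthest were Cd79b and Blnk at 3.33. Of 4737 mRNAs with at least 100 counts in all, the nearest were Snx5 to Cd79a at 0.07, Ppcdc to Cd79b at 0.05, Ppm1g to Syk at 0.08, Dda1 to Lyn at 0.13 and Ppp3cc to Blk at 0.21. For the others these were Prrc2b to Btk at 0.06, Rrm1 to Blnk at 0.11, Calhm2 to Plcg2 at 0.14, Atp2b1 to Prkcb at 0.07 and Atp6v1b2 to Vav1 at 0.04. A nearest gene among so many mRNAs is close by number alone, so these distances describe the likeness only. Cluh, Afg3l2 and Arhgap17 were nearest to their median.

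The rest of the pathway was read from 11 lists of 97 other genes, all found in the mRNA table. From pro-B to pre-B cells 11 of 87 tested were at least 2-fold higher and 34 lower, from pre-B to immature B cells 18 of 67 higher and 6 lower, from immature to mature B cells 23 of 82 higher and 7 lower, and from pro-B to mature B cells 24 of 88 higher and 12 lower. As shares these were 12.6% and 39.1%, 26.9% and 8.96%, 28.0% and 8.54%, and 27.3% and 13.6%, beside 14.8% and 29.2%, 18.9% and 20.2%, 24.2% and 18.1%, and 13.2% and 24.2% of all mRNAs tested. The background moved with the minimum count. At 30 counts in either library it was 9.86% and 39.0%, 14.0% and 15.7%, 34.6% and 11.6%, and 11.1% and 19.4%. At 100 counts it was 7.30% and 42.0%, 8.24% and 12.9%, 41.6% and 7.25%, and 12.6% and 14.0%. In the longest quartile of transcripts 41.8% were lower at the first step and 35.7% higher from immature to mature B cells, and the part of length in the counts of the lists was not tested. The median log2 ratios were -0.65, 0.47, 0.52 and 0.12, beside -0.37, -0.02, 0.19 and -0.19 for all mRNAs tested. The MAP kinase arm had 2 of 8 genes lower at the first step and 2 of 8 higher at the third. These counts lay near the 29.2% and 24.2% of all mRNAs tested.

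Of the receptor chains, Ighm, the mu heavy chain, had 3770, 7150, 7820 and 3900 CPM from pro-B to mature B cells, which is the order of levels that Cd79b had. Igkc, the kappa light chain, had 159 CPM in pre-B, 579 in immature B and 336 in mature B cells, after 26.02 counts in pro-B cells, and its log2 ratio from immature to mature B cells was -0.78 (-1.08 to -0.47). Ighd, the delta heavy chain, had 1890 CPM in mature B cells and between 54.1 and 107 before. Igll1, a surrogate light chain gene, had 427 counts in pro-B cells and none in the others. Of the co-receptor genes, Cr2 had 13.8, 62.4, 80.5 and 307 CPM, while Cd81 passed 2-fold in no comparison.

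Around the first kinases, the list of other Src-family kinases and their regulators had 6 of 8 genes lower from pro-B to pre-B cells (75.0%). Beside this stood 29.2% of all mRNAs, or 39.0% and 42.0% of those with at least 30 and 100 counts in either library. Ptprc, the phosphatase that keeps Src-family kinases ready and whose B220 form was used in the sort, had 251.99, 9.4, 15.59 and 573.9 counts, or 290, 39.1, 69.8 and 676 CPM. Its level was lowest in the pre-B and immature B libraries although these cells were sorted as B220+. Tec, the relative of Btk, was the single gene of its list with enough counts to test, and it had 63.81, 12, 0 and 115.38 counts, of library totals that differ as given above.

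Of the other adaptors, 5 of 13 were higher in mature than in immature B cells (38.5%) and none lower, beside 24.2% of all mRNAs, or 41.6% of those with at least 100 counts in either library. Bank1, a scaffold of B-cell signaling, had 49.5, 41.6, 215 and 1320 CPM, with 10 counts in pre-B cells. The other exchange factors and GTPases had 5 of 11 genes lower in pre-B cells (45.5%) and 2 higher (18.2%), beside 29.2% and 14.8% of all mRNAs. Of mRNAs with at least 30 and 100 counts in either library, 39.0% and 42.0% were lower and 9.86% and 7.30% higher. One of the 2 higher genes of this list was Rhoh, with 343, 745, 277 and 186 CPM. Of the other phospholipase C and protein kinase C genes, Plcg1, the relative of Plcg2 that T cells use, had 332, 117, 44.7 and 67.1 CPM, so that it went down over the stages at which Plcg2 went from 58.8 to 189 CPM. The immature B level of Plcg1 rests on 10 counts.

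Downstream of Plcg2, 7 of 13 calcium genes were lower (53.8%) and none higher from pro-B to pre-B cells. Beside this stood 29.2% of all mRNAs, or 39.0% and 42.0% of those with at least 30 and 100 counts in either library. From pre-B to immature B cells 5 of 10 were higher and 1 lower, beside 18.9% and 20.2% of all mRNAs. Itpr1, a calcium channel opened by the product of Plcg2, had 371, 70.8, 236 and 308 CPM, and Nfatc3, a transcription factor of the calcium arm, had 453, 75.8, 270 and 504. Their pre-B levels rest on 17 and 18.2 counts. Downstream of Prkcb, Malt1, a protease of NF-kappaB signaling, had 96.2, 66.6, 246 and 436 CPM, with 16 counts in pre-B cells. It stood 4.53-fold above pro-B cells in mature B cells, while Bcl10, a signaling adaptor, had between 106 and 139 CPM throughout.

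Among the negative regulators, Cd22, an inhibitory receptor that Lyn phosphorylates, had 95.6, 41.6, 380 and 1060 CPM, with 10 counts in pre-B cells. Ptpn6, the phosphatase that Cd22 recruits, had 264, 104, 895 and 887 CPM, a split between IgM- and IgM+ stages like that of Cd79a and Plcg2. Inpp5d, a lipid phosphatase that opposes Btk, had 751, 293, 324 and 548 CPM.

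Back-spliced reads, the mark of circular RNA, were listed for 5 of the 10 genes in the circRNA table, which holds 1005 circRNAs that each reached 2 unique reads in some library. The 15 circRNAs had 21, 25, 51 and 4 reads in stage order, of 1370, 1719, 1751 and 1531 reads of all circRNAs. Syk gave 7 of them, Prkcb 4, Blnk 2, and Cd79a and Plcg2 1 each. No circRNA of Cd79b, Lyn, Blk, Btk or Vav1 was listed.

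Syk had 17, 15, 27 and 2 back-spliced reads, but its 7 circRNAs include all 4 of the antisense ones, which had 0, 4, 17 and 0 of these reads. On the strand of the gene Syk had 17, 11, 10 and 2 reads, beside 657.13, 185.63, 119.18 and 816.22 mRNA counts. The library with the most Syk mRNA counts had the fewest of these reads, but pro-B cells, next in mRNA counts, had the most. Its circRNA novel_circ_000137, made of annotated exons at chr13:52610796-52612455 on the plus strand in the table, was the only one of the 15 with reads in all 4 libraries, with 13, 6, 10 and 2. Blnk had 16 reads, all in immature B cells, where its mRNA had 15 counts, and both of its circRNAs were classed as intronic. Prkcb had 4, 6, 4 and 2 reads from 4 circRNAs that were each in 1 library. Of the 15 circRNAs, 13 were read in 1 library only, and 7 were classed as intronic. Of the 19 counts above 0, 16 were even.

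**Figure D5:**
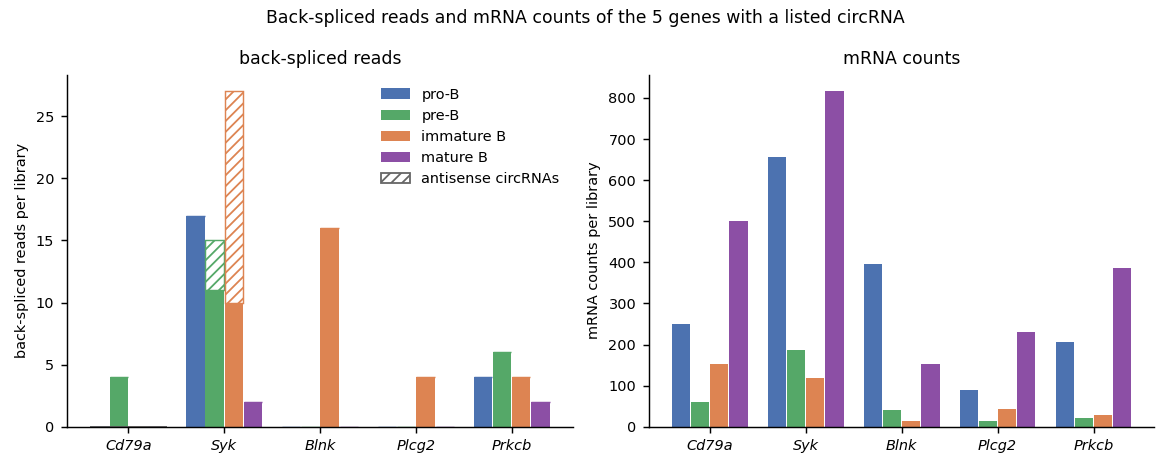
Back-spliced reads (left) and mRNA counts (right) per library of the 5 genes with a listed circRNA, as raw numbers that are not scaled between libraries. Antisense circRNAs are hatched and give 17 of the 27 Syk reads in immature B cells, and Blnk has back-spliced reads in that library alone.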

How the data were processed

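Total RNA of 4 sorted populations was depleted of rRNA and sequenced as strand-specific paired-end libraries, 1 per stage. Per the paper's methods, the authors removed low-quality and rRNA reads with fastp and Bowtie2, mapped the others with HISAT2 and quantified transcripts with StringTie. They deposited estimated counts without normalization, not all whole, and FPKM values scaled to transcript length and to fragments on reference genes. Back-spliced read counts of circRNAs came from find_circ, and the deposited RPM divides them by the library's back-spliced reads. The genome build of the circRNA positions is not given in the sources used here with a role: per the labels' processing notes mm9 and Bowtie 0.12.2 are named, while 916 of 945 circRNAs (96.9%) lay inside the GRCm38 span of their source gene. The tables of the 4 small RNA libraries were not used here.

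Samples were assigned to stages by their labels. CPM is the count over the total of the mRNA column. An mRNA entered a comparison with at least 10 counts in either library, and a call needed a ratio of at least 2-fold. Counts under 3 were set to 3 for whole-table ratios. Intervals are exact Poisson for a level and exact conditional binomial for a ratio, at 95%, on rounded counts. They cover counting error only, and no molecular identifiers are described. Relative transcript length is the count per unit of FPKM over libraries with at least 10 counts and an FPKM of at least 0.5. Ratios and quartiles were first tried on simulated data. Alternatives were the deposited FPKM, TMM and DESeq2 size factors, totals without the 20 most counted mRNAs of any library, log2(CPM + 1), a 1.5-fold threshold, the interval as a further condition, halved counts (since between 63.3% and 73.9% of whole counts were even) and, added after the values were seen, ratios relative to mRNAs of like length.

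The 10 genes, the lists and the marker genes were chosen with earlier results of these data known. Named are the 10 genes, list genes past 2-fold with an interval that leaves out 1 (at most the 4 with the most counts per list), the nearest profiles and the circRNAs of the 10 genes. Cd81, Bcl10 and single markers are named outside this rule, as exceptions to a statement on their list or as parts of a sum. Size factors came from edgeR 4.0.16 and DESeq2 1.42.0 under R 4.3.3. All else was computed in Python 3.11.15 (scipy 1.17.1, pandas 2.3.3, numpy 2.4.6) and drawn with matplotlib 3.10.9. Values of some list genes are not reported here.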

Additional observations from a re-analysis of the deposited data

Results flagged for a closer look

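Signals in the tables outside the mRNA comparisons exceeded the 3 counts that a count of 0 leaves room for. In the library with the most, back-spliced reads numbered 4 for Cd79a (pre-B cells), 27 for Syk (17 of them antisense), 16 for Blnk and 4 for Plcg2 (immature B cells) and 6 for Prkcb (pre-B cells). Transcripts of the lncRNA table that carry the symbol of one of the genes reached 51.18 counts for Lyn, 4 for Prkcb and 5.89 for Vav1, each in pro-B cells. The 2 Lyn transcripts had 51.18, 21.79, 7.17 and 31.25 counts from pro-B to mature B cells, which is 18.2%, 19.3%, 14.9% and 8.49% of the Lyn mRNA count, and the split of reads between them and the Lyn mRNA was estimated by the authors' program.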

How the results depend on the processing

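Of 72 recomputed counts of genes past 2-fold, 62 stayed within 1.5 times the reported one. With the deposited FPKM, 0 genes were higher and 9 lower from pro-B to pre-B cells, and 9 higher and 0 lower from immature to mature B cells. This follows the shift of the whole table, and Cd79b changed sign there, to -0.53 and 0.37. At 1.5-fold, from pro-B to pre-B cells 2 genes were higher (Cd79b and Blk) and 4 lower, and 2 were lower in mature than in pro-B cells (Btk and Blnk). Relative to mRNAs of like transcript length, that step had 2 genes higher (Cd79b and Blk) and 1 lower (Blnk). With halved counts and an interval that leaves out 1, 1 gene, Lyn, was lower in immature B than in pre-B cells. Of the 40 log2 ratios of the 10 genes, 39 stayed within their counting interval with TMM, 37 with DESeq2 size factors, 38 without the most counted mRNAs, 40 with log2(CPM + 1), 33 against mRNAs of like length and 18 with FPKM. Prkcb joined the genes at least 2-fold higher in mature than in pro-B cells with TMM, DESeq2 size factors and like length. Of 24 background shares with other minimum counts, 12 moved by over 1.5 times. No paired analysis was possible because each stage has 1 library. At the depth of the pre-B and immature B libraries, levels of Btk, Blk, Blnk, Plcg2, Prkcb and Vav1 rest on fewer than 50 counts, as does that of Lyn in immature B cells.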
